A study of Homo sapiens with 24 samples.

Results

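BT-474 cells are an established line from a human breast carcinoma. Their ERBB2 gene, which encodes the receptor tyrosine kinase HER2, is amplified, and they also express the estrogen receptor. Their transcripts were measured on 24 oligonucleotide arrays in 8 groups of 3, after siRNA against HER2 or a control siRNA, with estrogen or vehicle, at 4 h and 24 h. The comparison described here sets the 3 arrays from HER2 siRNA cells kept in vehicle for 24 h against the 3 from HER2 siRNA cells kept in vehicle for 4 h, picked by sample title, so that it rests on 6 of the 24 arrays. All 6 came from the same cell line with the same HER2 siRNA label and the same vehicle, 0.001% ethanol, and differ in the labels by time alone. Control siRNA cells in vehicle, and HER2 siRNA cells with 10 nM estrogen, each at 4 h and 24 h with 3 arrays a group, are used to ask whether the change over time differed there. HER2 siRNA and control siRNA cells with estrogen for 4 h, 3 arrays each, give the effect of the siRNA on other arrays. The hours are those of the vehicle or hormone treatment, and the time since the siRNA was given, its sequence, and whether replicates were separate cultures are not given in the sources used here. The p-values therefore measure the spread between these arrays, which may be technical.

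HER2 has no ligand of its own and signals by pairing with other receptors of its family, chiefly HER3, into the PI3K and AKT pathway and the MAPK pathway. In cells with an amplified ERBB2 gene this signal sustains cell division, lipid synthesis and glucose uptake, and AKT keeps the FOXO transcription factors out of the nucleus. The groups were compared to learn which transcripts moved between an early and a late time in cells that carry the HER2 siRNA and have no added hormone. In bulk samples such as these, fewer cells of a kind and less RNA per cell cannot be told apart.

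Levels are log2 values from the robust multi-array average (RMA), with 1 probe set per gene, and 14335 of 19775 named genes reached a log2 level of 5 in at least 3 arrays and were tested. A difference is the mean at 24 h minus the mean at 4 h on the log2 scale, given with its standard error (SE). A gene is said to have risen or fallen where limma, fitted to all 24 arrays, gave a Benjamini-Hochberg adjusted p under 0.05 over the 14335 genes. The median level of the 6 arrays lay between 5.31 and 5.35, and correlations across genes within each group were 0.991 to 0.995. The gap between 3′ and 5′ GAPDH probe sets, a sign of RNA integrity, was 0.409 ± 0.101 at 4 h and 0.461 ± 0.0472 at 24 h (SD, n = 3). The luminal markers KRT8, KRT18, KRT19, EPCAM, CDH1, FOXA1, GATA3 and ESR1 were all measured, the lowest being ESR1 at 8.6 to 9.25. Of 16 fibroblast, leukocyte and endothelial markers, 7 passed the filter and 0 changed by limma's test (1 lower at an unadjusted p under 0.05, and 1 lower with a replicate block). Their mean level lay between 6.20 and 6.31 over the 6 arrays.

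1 array moved the count of called genes most when it was left out of the 24 h against 4 h comparison. Replicate 1 at 4 h had the highest mean level of mitosis genes in its group, 8.03 against 7.50 and 7.57, and the highest mean level of p53 target genes, 8.39 against 8.03 and 8.01. The first 4 h replicate of the control siRNA vehicle group and that of the HER2 siRNA estrogen group also had the highest p53 target levels of their groups, 8.42 and 8.18. Its part in the results was not tested otherwise than by leaving it out, and counts without it are given beside those it moves.

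Between 4 h and 24 h, 926 of 14335 genes changed (6.46%), of which 434 rose (3.03%) and 492 fell (3.43%). Most moved by little. The median size of the difference over all genes was 0.118, the median SE 0.109, and 57 genes (0.398%) changed at least 2-fold, 36 of them upwards and 21 downwards, genes below a level of 5 in 1 of the groups included. The 3 levels at 24 h lay wholly above or below the 3 at 4 h for 889 of the 926 genes, and for 20.5% of all genes tested. Without replicate 1 at 4 h the count fell to 208, without replicate 2 at 24 h to 406 and without replicate 3 at 24 h to 407. Fitted to the 6 arrays alone the test called 52 genes. Blocked by replicate number in the fit of all 24 arrays, it called 1670, including all 926, with 802 higher and 868 lower of 14335. The number was taken to pair these 6 arrays, and with the block in a fit of these alone 542 were called, 323 higher and 219 lower. List counts with the block below are from the fit of all 24 arrays unless stated. At an unadjusted p under 0.05 by limma, 3043 of the 14335 genes differed in either direction.

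ERBB2 itself, the gene the siRNA targets, read 11.86, 12.03 and 12.41 at 4 h and 12.36, 12.69 and 12.57 at 24 h (replicates 1, 2 and 3). The groups overlapped, since the third array at 4 h lay above the first at 24 h. The difference was 0.44 ± 0.11 (limma adjusted p = 0.021), a 1.36-fold higher level at 24 h. That call ended without replicate 1 or 2 at 4 h (adjusted p = 0.171 and 0.0585) and without replicate 2 or 3 at 24 h (0.108 and 0.071). In control siRNA cells the corresponding difference was 0.22 (adjusted p = 0.37).

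GRB14 had the largest rise of all tested genes. It encodes an adaptor that binds the insulin receptor and restrains it, and it read 3.93, 4.48 and 5.41 at 4 h and 6.46, 6.53 and 7.67 at 24 h. Each array at 24 h lay above every array at 4 h, and the difference was 2.28 ± 0.30 (limma adjusted p = 0.000137). NECTIN3, an adhesion molecule of cell junctions, read 4.39, 4.75 and 5.01 at 4 h and 6.09, 5.84 and 6.42 at 24 h, and rose by 1.40 ± 0.20. CAV1, the coat protein of caveolae, read 4.66, 4.63 and 4.54 and then 5.30, 6.0 and 6.59, so it was even at 4 h and spread at 24 h, with a difference of 1.35 ± 0.26. CCR2, a chemokine receptor best known from monocytes, read 5.13, 5.46 and 5.59 and then 6.49, 6.80 and 6.70 (1.27 ± 0.16). ALPP, the placental alkaline phosphatase, whose close paralogs the probe set may not tell apart, read 4.62, 4.88 and 4.23 and then 5.97, 5.70 and 5.85 (1.26 ± 0.15, adjusted p = 5.31e-05). The groups of none of these 5 genes overlapped. CAV1 and ALPP lay below the filter level of 5 on all 3 arrays at 4 h, and GRB14 and NECTIN3 on 2 of 3, so they passed the filter through groups where they are higher, and no fold is given for them.

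Others among the 15 largest rises were PGM5, a phosphoglucomutase relative found at adherens junctions (1.91 ± 0.36), PTCHD1, a membrane protein with a patched domain (1.52 ± 0.21), GPC5, a cell surface proteoglycan (1.47 ± 0.37), and STARD13 (1.35 ± 0.23). PAPSS2, which makes the sulfate donor of the cell, rose by 1.33 ± 0.31, and so did PCDH10, a protocadherin, by 1.33 ± 0.21. HPGD, which breaks down prostaglandins, rose by 1.25 ± 0.27, VGLL1, a cofactor of TEAD transcription factors, by 1.23 ± 0.31, the transcription factor MECOM by 1.22 ± 0.23, and the ephrin receptor EPHA4 by 1.19 ± 0.17. These 10 genes were 2.28-fold to 3.77-fold higher at 24 h. GPC5, PAPSS2 and VGLL1 were less firm, since their calls ended without replicate 1 at 4 h (adjusted p = 0.135, 0.095 and 0.108), without replicate 2 at 4 h (0.0651, 0.0517 and 0.0904) and without replicate 3 at 24 h (0.1, 0.0836 and 0.101). HPGD lost its call without replicate 1 at 4 h (0.0668).

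CYP1B1, a cytochrome P450 that oxidises estrogens and polycyclic hydrocarbons, read 12.10, 10.74 and 11.00 at 4 h and 8.57, 7.51 and 7.63 at 24 h. It fell by 3.38 ± 0.41 on the log2 scale, a 10.4-fold lower level (limma adjusted p = 7.01e-05), with no overlap. FAS, the receptor of FAS ligand, read 6.98, 5.39 and 5.98 at 4 h and 3.26, 3.22 and 3.30 at 24 h (-2.85 ± 0.40). All 3 arrays at 24 h were below the filter level of 5, so no fold is given, and both calls held under every alternative in which the gene was tested. GDF15, a secreted stress cytokine, read 8.62, 8.17 and 7.51 and then 6.75, 6.79 and 5.66 (-1.70 ± 0.33). SLC7A11, which imports cystine for glutathione synthesis, read 9.07, 9.14 and 7.82 and then 7.41, 7.23 and 6.31 (-1.69 ± 0.39). In both genes replicate 3 was the lowest array at each time.

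Further large falls included AKR1B10, an aldo-keto reductase (-1.60 ± 0.38), LAMP3, a lysosomal membrane protein (-1.47 ± 0.40), and ANKRD22, which read 7.91, 7.88 and 7.48 at 4 h and 6.45, 6.30 and 6.16 at 24 h (-1.45 ± 0.14, limma adjusted p = 4.8e-06). ABCA12, a lipid transporter of epithelia, fell by 1.34 ± 0.21, the homeobox gene DLX1 by 1.33 ± 0.31, the neutrophil chemokine CXCL8 by 1.29 ± 0.27 and GEM, a small GTP-binding protein, by 1.17 ± 0.25. PMAIP1, which encodes the death-promoting protein NOXA, fell by 1.16 ± 0.16, the metalloproteinase MMP10 by 1.07 ± 0.29, and SIPA1L2, of the Rap GTPase-activating family, by 1.07 ± 0.21. On the mean of its probe sets DLX1 did not pass (-0.59, limma adjusted p = 0.069), and another of its probe sets had the opposite sign. The calls of ANKRD22 and ABCA12 held under every alternative in which the gene was tested. Those of SLC7A11, AKR1B10, LAMP3, DLX1, CXCL8, GEM and MMP10 ended without replicate 1 at 4 h (adjusted p = 0.0529 to 0.212). Those of SLC7A11, AKR1B10, LAMP3, GEM and MMP10 ended without replicate 3 at 24 h (0.0507 to 0.139). Leaving out replicate 2 at 4 h ended SLC7A11, LAMP3 and MMP10 (0.0505 to 0.0916), replicate 2 at 24 h AKR1B10, DLX1 and MMP10 (0.0506 to 0.0594), and replicate 1 at 24 h LAMP3 (0.053).

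**Figure D1:**
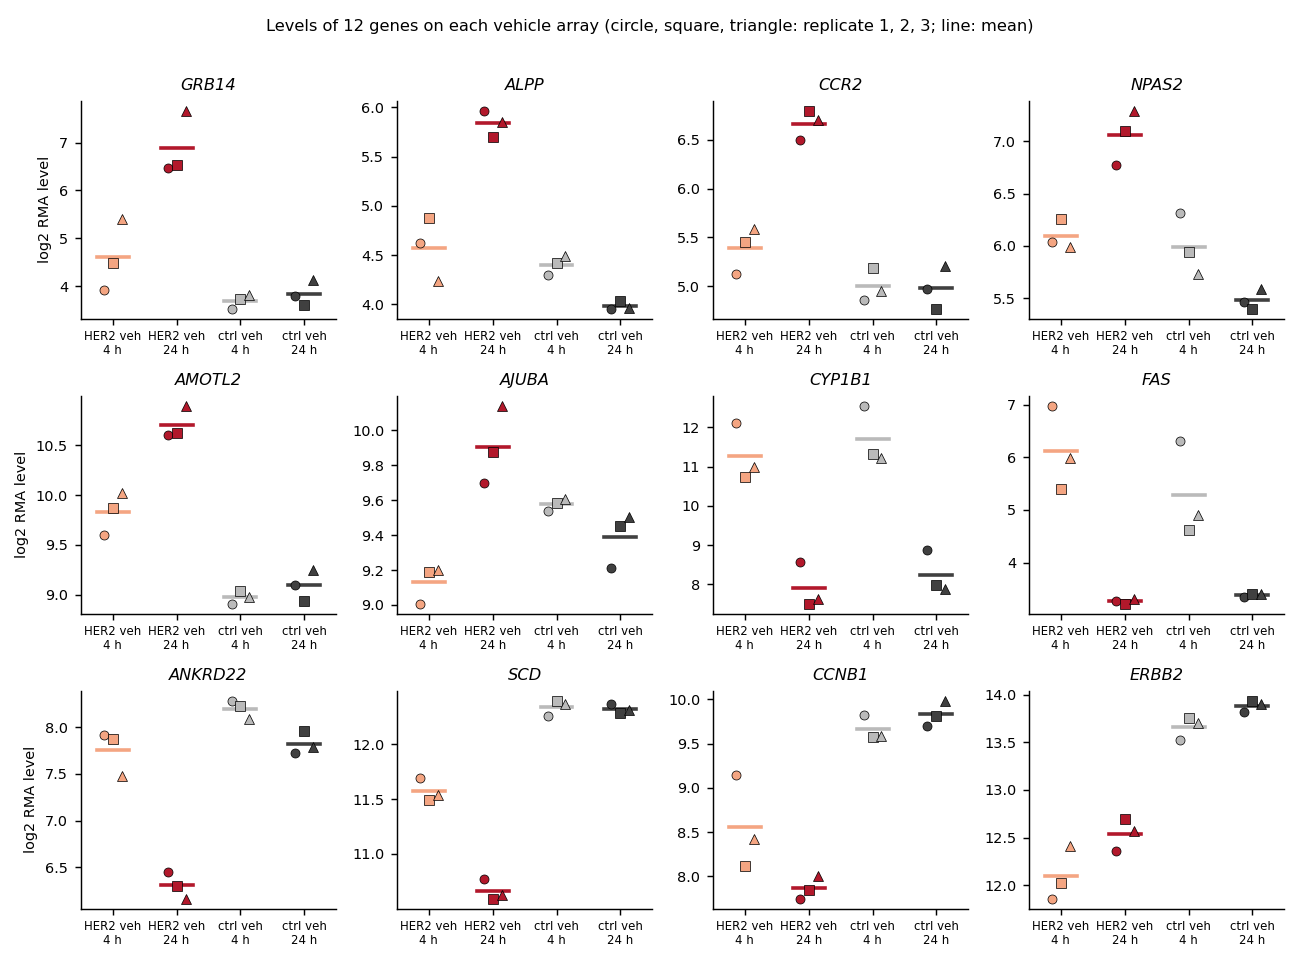
Log2 RMA levels of 12 named genes on each array of the HER2 siRNA and control siRNA vehicle groups at 4 h and 24 h, 3 arrays a group, with the group mean as a bar. GRB14 rose from between 3.93 and 5.41 to between 6.46 and 7.67 in HER2 siRNA cells, and CYP1B1 fell from between 10.74 and 12.10 to between 7.51 and 8.57.

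Targets of YAP and TEAD rose together. YAP is a coactivator that the Hippo kinases hold in the cytoplasm, and in the nucleus it joins TEAD proteins at their target genes, which include feedback inhibitors of YAP itself. Of 14 genes on the list 10 were tested, and 7 of the 10 rose and 0 fell, against 3.03% and 3.43% of all genes. The members not tested, CCN2, ANKRD1, AXL and NT5E, were below the filter or had no probe set of their own. The median difference of the list was 0.64, against 0.0035 over all genes. The promoters of AMOTL2 and AJUBA are shown because both genes rose and both carry the TEAD motif GGAATG, on either strand, in the 250 bases before an annotated start. The sequences are the 120 bases before the second start that RefSeq lists (GRCh38.p14, minus strand, chr3:134374448-134374567 for AMOTL2 and chr14:22976843-22976962 for AJUBA), with the motif in capitals.
AMOTL2: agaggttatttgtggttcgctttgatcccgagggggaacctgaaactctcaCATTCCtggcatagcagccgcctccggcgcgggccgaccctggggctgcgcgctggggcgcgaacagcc
AJUBA: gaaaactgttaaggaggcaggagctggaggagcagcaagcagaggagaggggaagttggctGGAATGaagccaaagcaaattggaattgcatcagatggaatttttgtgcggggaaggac
The motif was in the promoters of 3 of 6 called members with a promoter in the table and in those of 4 of 7 of all tested members there. It was in those of 14.3% of all 27305 genes with a promoter (13.1% of tested genes). Here and below each gene counts once, with a motif in any of its listed promoters.

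AMOTL2, an angiomotin that binds YAP and holds it back, read 9.60, 9.87 and 10.02 at 4 h and 10.60, 10.62 and 10.90 at 24 h. The groups did not overlap and the difference was 0.88 ± 0.12 (limma adjusted p = 0.000151). AJUBA, a LIM protein that inhibits the LATS kinases, read 9.01, 9.19 and 9.20 and then 9.70, 9.88 and 10.14 (0.77 ± 0.13). Another AJUBA probe set had the opposite sign and did not pass. CCN1, a secreted matrix protein and classical YAP target, read 7.68, 7.79 and 7.82 and then 8.22, 8.18 and 8.38 (0.50 ± 0.08). LATS2, the Hippo kinase that phosphorylates YAP, rose by 0.80 ± 0.13, the phosphatase PTPN14, a YAP inhibitor, by 0.92 ± 0.17, F3, which encodes tissue factor, by 1.02 ± 0.21, and AMOTL1 by 0.48 ± 0.10. TEAD1 read 0.38 ± 0.12 higher and passed with the replicate block (adjusted p = 0.00638, against 0.0569 without). The mean level of the list was 8.14, 8.19 and 8.45 at 4 h and 8.77, 8.84 and 9.04 at 24 h. In control siRNA cells it was 7.95, 7.98 and 7.90 and then 7.97, 7.94 and 8.02, and the median difference there was 0.03 with 0 members called. F3 and AMOTL1 lost their calls without replicate 1 at 4 h (adjusted p = 0.0581 and 0.0895).

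Targets of the aryl hydrocarbon receptor fell. This ligand-activated factor binds xenobiotic response elements, whose core is GCGTG, and switches on the enzymes that clear its ligands and its own repressor. All 8 genes on the list were tested, and 4 fell and 0 rose, with a median difference of -0.63. The promoter of CYP1A1, the classical target, is shown because the gene fell and its promoter carries the core (120 bases before the start in RefSeq, GRCh38.p14, minus strand, chr15:74725529-74725648, core in capitals).
CYP1A1: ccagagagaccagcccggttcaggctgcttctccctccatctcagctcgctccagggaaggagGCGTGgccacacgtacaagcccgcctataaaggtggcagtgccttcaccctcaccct
The core is a short and common string, found in the promoters of 36.2% of all genes and 50.8% of tested genes. It was in the promoters of 3 of the 6 list members with a promoter, CYP1A1, TIPARP and AHRR, the 3 called members in the table.

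CYP1A1 read 13.55, 12.75 and 13.06 at 4 h and 11.59, 10.75 and 10.43 at 24 h, a fall of 2.19 ± 0.44 on the log2 scale (4.58-fold, limma adjusted p = 0.00556) with no overlap. TIPARP, an enzyme that modifies the receptor and dampens it, fell by 0.96 ± 0.23, and AHRR, the receptor's repressor, by 0.56 ± 0.16. With CYP1B1 these are the 4 that passed. In control siRNA cells the differences were -4.15 for CYP1A1 and -3.46 for CYP1B1 (adjusted p = 3.88e-05 and 0.000208), and the list's median there was -0.77. The difference of the changes between the siRNAs did not pass for CYP1A1 (1.96 ± 0.62, adjusted p = 0.162) or CYP1B1 (0.08 ± 0.59, 0.974). With the replicate block 6 of the 8 fell, CYP1A2 among them (adjusted p = 0.0221, against 0.169 without). In the blocked fit of the 6 arrays alone 5 fell. Without replicate 1 at 4 h, as without replicate 2 at 24 h, 2 fell, because TIPARP (0.142 and 0.0589) and AHRR (0.213 and 0.111) dropped out. TIPARP also lost its call without replicate 3 at 24 h (0.0552), and AHRR without replicate 3 at 4 h (0.104) or replicate 1 at 24 h (0.109).

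Targets of p53, the damage-activated factor that arrests cells or kills them, fell as well. Of 16 tested members 7 fell and 0 rose, with a median difference of -0.38. Besides FAS and GDF15, ZMAT3, an RNA-binding protein, read 8.53, 8.28 and 8.01 at 4 h and 7.61, 7.35 and 7.57 at 24 h, without overlap (-0.76 ± 0.14, limma adjusted p = 0.00223). TNFRSF10B, a receptor of the death ligand TRAIL, fell by 0.67 ± 0.14, the repair factor DDB2 by 0.60 ± 0.14, the metabolic regulator TIGAR by 1.01 ± 0.23 and the nuclease AEN by 0.41 ± 0.11. CDKN1A, which encodes the cell cycle inhibitor p21, read 10.09, 9.49 and 9.04 and then 8.94, 8.51 and 8.03. Its levels ran in the same order of replicates at both times, and its difference of -1.05 ± 0.32 passed with the replicate block (adjusted p = 1.13e-05) but not without (0.0563). MDM2, the ubiquitin ligase that destroys p53, had a difference of -0.22 (adjusted p = 0.455). The list's median in control siRNA cells was -0.35. The count was 3 without replicate 1 at 4 h, where the calls of TNFRSF10B, DDB2, TIGAR and AEN ended (0.0553 to 0.182). Those of DDB2 and AEN ended without replicate 3 at 24 h (0.0592 and 0.12), without replicate 3 at 4 h that of DDB2 (0.0579) and without replicate 2 at 24 h that of TIGAR (0.0519).

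Genes of mitosis were lower at 24 h, while genes of DNA replication did not move together. Cells switch on the first set late in the cycle through promoters with a cell cycle homology region, TTTGAA, and the second at the start of S phase through E2F. Of 35 mitosis genes 11 fell and 0 rose, 33 had a negative difference, and the median was -0.43. With the replicate block 14 fell, but in the blocked fit of only the arrays compared 1 fell. The promoters of KIF11 and ANLN are shown as called members that carry TTTGAA, on either strand, close to the start (120 bases before it in RefSeq, GRCh38.p14, plus strand, chr10:92593010-92593129 for KIF11 and chr7:36389742-36389861 for ANLN, motif in capitals).
KIF11: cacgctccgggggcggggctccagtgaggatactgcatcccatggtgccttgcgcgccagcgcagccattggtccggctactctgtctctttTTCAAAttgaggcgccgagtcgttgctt
ANLN: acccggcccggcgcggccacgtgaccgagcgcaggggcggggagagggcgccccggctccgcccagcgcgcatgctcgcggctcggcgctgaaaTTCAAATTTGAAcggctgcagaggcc
It was in the promoters of 4 of 8 called members and of 16 of all 29 members in the table, and in those of 16.1% of all genes (12.2% of tested genes).

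CCNB1, the cyclin that starts mitosis, read 9.14, 8.12 and 8.42 at 4 h and 7.75, 7.85 and 8.01 at 24 h (-0.69 ± 0.18, limma adjusted p = 0.0224). The first array at 4 h stood well above the other two, and the groups did not overlap. CENPE, a kinetochore motor, read 6.11, 5.90 and 5.96 and then 5.13, 5.39 and 5.56, with an even 4 h group (-0.63 ± 0.14). ASPM, a spindle pole protein, fell by 0.73 ± 0.18, KIF11, the motor that separates the poles, by 0.59 ± 0.14, ANLN, a scaffold of cell division, by 0.59 ± 0.16, and TTK, a kinase of the spindle checkpoint, by 0.50 ± 0.14. The other called members, AURKA, AURKB, NUSAP1, NCAPG and UBE2C, fell by 0.45 to 0.61. The levels of NCAPG overlapped. In control siRNA cells the list's median was 0.07 and in HER2 siRNA cells with estrogen 0.00.

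The mitosis count moved with single arrays. Mean levels of the list were 8.03, 7.50 and 7.57 at 4 h and 7.12, 7.32 and 7.42 at 24 h, and without replicate 1 at 4 h 0 of the 35 genes fell, with CENPE the nearest (adjusted p = 0.0822) and the other called members at 0.142 to 0.282. Leaving out another array gave 1 call without replicate 1 at 24 h, where CENPE alone passed and the others had 0.0626 to 0.142. Without replicate 2 at 24 h 3 fell, with 0.0504 to 0.108 for the other 8, and without replicate 2 at 4 h 18. The count was 8 without replicate 3 at 24 h, where AURKA, AURKB, TTK, NUSAP1 and UBE2C did not pass (0.063 to 0.0767). AURKB and NCAPG did not pass without replicate 3 at 4 h (0.0511 and 0.0522). CDK1, TOP2A and KIF11 show the range among members, with differences of -0.26 for CDK1 (adjusted p = 0.306), -0.37 for TOP2A (0.128) and -0.59 for KIF11 (0.0164). Mitosis levels in control siRNA vehicle cells were higher throughout, between 9.03 and 9.25.

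Of 40 DNA replication genes 1 rose and 2 fell, a share close to the background, and the median was -0.06. With the replicate block 2 rose and 3 fell. DBF4, the activator of the replication kinase CDC7, fell by 0.65 ± 0.15, RFC5, a clamp loader subunit, fell by 0.34 ± 0.10, and POLE, the leading strand polymerase, rose by 0.30 ± 0.09. The difference was -0.16 for the sliding clamp PCNA (adjusted p = 0.41) and 0.04 for the helicase subunit MCM2 (0.861). Among 25 nucleotide synthesis genes 1 rose, IMPDH2, of guanine nucleotide synthesis (0.32 ± 0.08), and with the block 1 fell too. Of 21 regulators of the G1 to S step 2 rose, CDK6, which starts the step with D cyclins (0.55 ± 0.13), and CDKN1C, an inhibitor of cyclin-dependent kinases (0.56 ± 0.12). With the block 1 of them fell as well. CCND1, the cyclin partner of CDK6, read 0.32 higher (0.102). On the mean of their probe sets RFC5 (-0.08, limma adjusted p = 0.591) and CDK6 (0.24, 0.132) did not pass. Each had another probe set with the opposite sign. Of 11 recombination repair genes 0 passed by limma (2 lower at an unadjusted p under 0.05, and 1 lower with the block). The calls of RFC5, POLE and IMPDH2 ended without replicate 1 at 4 h (0.0913 to 0.204) or 2 at 4 h (0.0503 to 0.08) and without replicate 2 or 3 at 24 h (0.0658 to 0.219), and RFC5 and POLE also without replicate 3 at 4 h (0.0857 and 0.0874). DBF4 lost its call without replicate 1 at 4 h (0.0925) or 2 at 24 h (0.0686), CDK6 without replicate 1 at 4 h (0.137) or 3 at 24 h (0.108), and CDKN1C without replicate 3 at 24 h (0.0611).

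**Figure D2:**
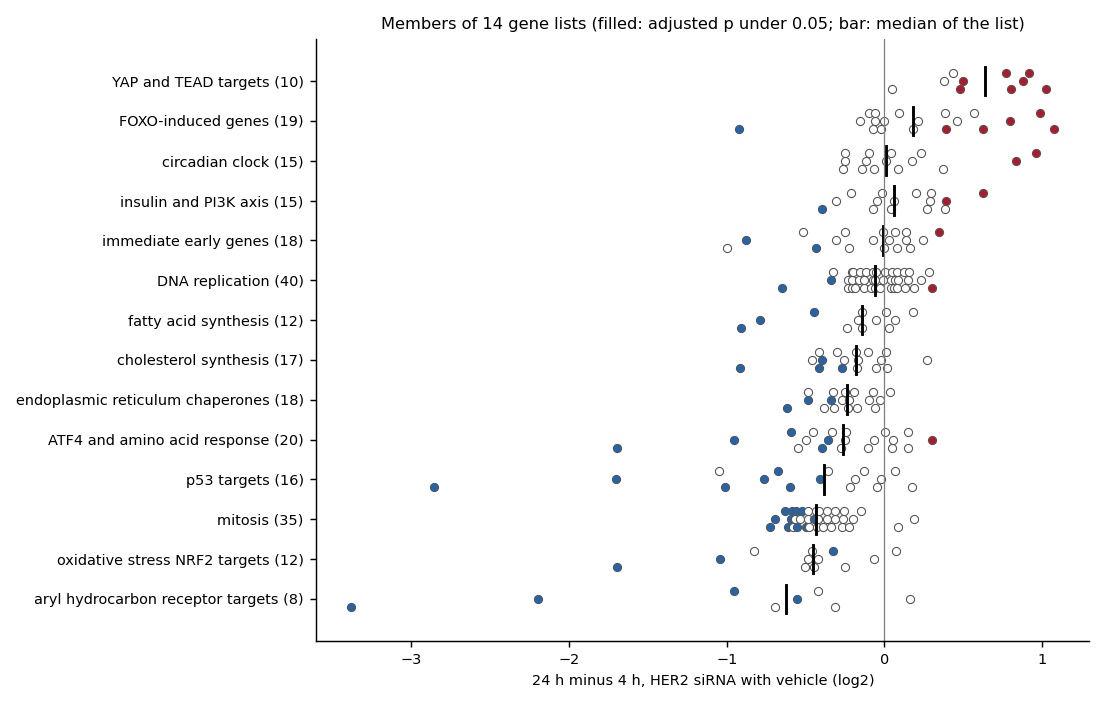
Log2 difference, 24 h minus 4 h in HER2 siRNA vehicle cells, of each tested member of 14 gene lists, 1 point a gene. Filled points passed limma's adjusted p of 0.05 and the bar is the list median, which is 0.64 for YAP and TEAD targets and -0.43 for mitosis.

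**Figure D3:**
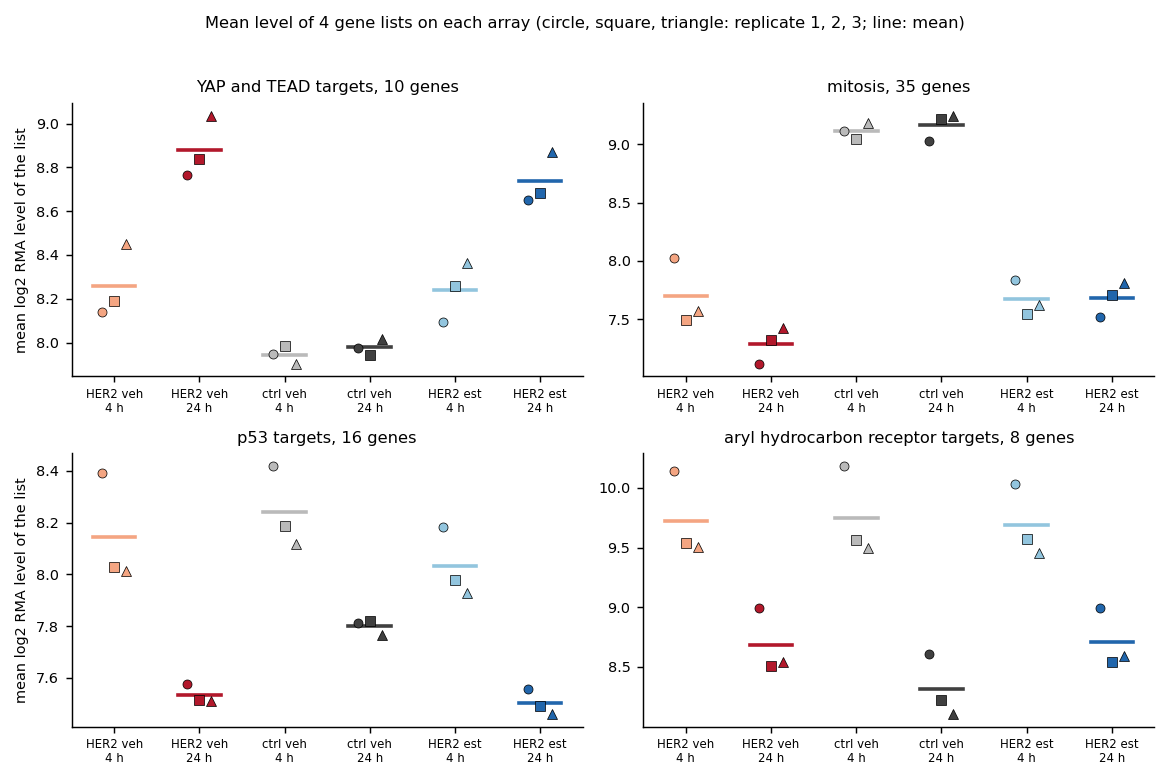
Mean log2 level of 4 gene lists on each array, in the HER2 siRNA vehicle, control siRNA vehicle and HER2 siRNA estrogen groups at 4 h and 24 h (3 arrays a group). The first 4 h replicate of the HER2 siRNA vehicle group has a mitosis mean of 8.03, above the 7.50 and 7.57 of the other two.

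Stress response genes were lower at 24 h in part. Of 20 genes of ATF4, the factor made when amino acids run short or unfolded protein builds up, 5 fell and 1 rose, with a median of -0.26. ASNS, which makes asparagine, read 9.85, 9.67 and 9.29 at 4 h and 9.04, 9.12 and 8.87 at 24 h, without overlap (-0.59 ± 0.14, limma adjusted p = 0.0171). Its promoter holds the ATF4 composite core TGATGNAA, in capitals below (120 bases before the start in RefSeq, GRCh38.p14, minus strand, chr7:97872409-97872528). The core was in the promoters of 3.89% of all genes (2.56% of tested genes) and of 2 of 17 list members.
ASNS: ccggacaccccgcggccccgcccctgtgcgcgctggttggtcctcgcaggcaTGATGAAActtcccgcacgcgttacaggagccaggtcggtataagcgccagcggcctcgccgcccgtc
SLC7A5, a transporter of large amino acids, fell by 0.95 ± 0.20, the pseudokinase TRIB3 by 0.36 ± 0.09 and DDIT4, an inhibitor of mTORC1, by 0.40 ± 0.11, while the chromatin protein NUPR1 rose by 0.30 ± 0.08. With the block 9 of the 20 fell, and 5 in the blocked fit of the 6 arrays alone. Leaving out replicate 1 at 4 h gave 0 that fell, with adjusted p of 0.0668 to 0.142 for these and 0.186 for NUPR1, and without replicate 3 at 24 h 1 fell, SLC7A5, with 0.0762 to 0.152 for ASNS, TRIB3, DDIT4 and NUPR1. Without replicate 2 at 24 h, as without replicate 2 at 4 h, 3 fell, and without replicate 3 at 4 h 9. The list's median was also -0.26 in control siRNA cells and -0.20 in HER2 siRNA cells with estrogen. The change differed from that in control siRNA cells for 0 of the 20 genes.

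NRF2, the factor of the oxidative stress response, acts at antioxidant response elements, whose core is TGACNNNGC. Of its 12 tested targets 3 fell and 0 rose, with a median of -0.45. With the replicate block 10 fell, and 7 in the blocked fit of only the arrays compared. GCLM and GCLC, the subunits of the enzyme that starts glutathione synthesis, fell by 1.04 ± 0.29 and 0.33 ± 0.09, besides SLC7A11. GCLM read 9.74, 9.14 and 8.40 at 4 h and 8.43, 7.91 and 7.81 at 24 h, so the groups overlapped, while each replicate was lower at 24 h. NQO1, a quinone reductase, read 12.03, 11.63 and 11.36 and then 11.56, 11.16 and 11.04, with the replicates in the same order at both times. Its adjusted p was 0.303 without the block and 0.000518 with it, and that of TXNRD1, thioredoxin reductase, 0.0811 and 0.000584. For HMOX1, heme oxygenase, the difference was -0.82 (0.189, and 0.023 with the block). The count was 0 without replicate 1 or 2 at 4 h or replicate 3 at 24 h, 1 without replicate 2 at 24 h, 5 without replicate 1 at 24 h and 7 without replicate 3 at 4 h. The list's median was -0.39 in control siRNA cells and -0.42 in HER2 siRNA cells with estrogen. The change differed from that in control siRNA cells for 0 of the 12 genes. The core was in the promoters of 3 of 10 list members, of 13.2% of all genes and of 15.7% of tested genes.

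Of 18 endoplasmic reticulum chaperones and folding factors 3 fell and 0 rose, with a median of -0.24. HSPA5, the main chaperone of that compartment, read 13.44, 13.37 and 13.12 at 4 h and 12.74, 12.78 and 12.55 at 24 h, without overlap (-0.62 ± 0.12). Its cochaperone DNAJC3 fell by 0.49 ± 0.08 and DNAJB11 by 0.34 ± 0.10. With the replicate block 7 members fell, as they did without replicate 3 at 4 h. The blocked fit of only the arrays compared gave 3. DNAJB11 lost its call without replicate 1 or 2 at 4 h (limma adjusted p = 0.277 and 0.0926) and without replicate 1, 2 or 3 at 24 h (0.0656, 0.0959 and 0.13). The list's median was -0.11 in control siRNA cells and -0.23 with estrogen.

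Lipid synthesis genes that fell were few but included SCD, the desaturase that makes oleate. SCD read 11.70, 11.49 and 11.54 at 4 h and 10.77, 10.59 and 10.63 at 24 h, so that the arrays of each time were close together and far from the other time. The difference was -0.91 ± 0.08 (1.88-fold lower, limma adjusted p = 9.41e-07), and the call held under every alternative tried. FADS2, another desaturase, fell by 0.44 ± 0.08 and ME1, which supplies NADPH, by 0.79 ± 0.17, making 3 of 12 fatty acid synthesis genes. The difference for FASN, the synthase itself, was -0.24 (0.172). With the replicate block 6 of 17 cholesterol synthesis genes fell, and 2 in the blocked fit of the 6 arrays alone. Without the block 4 fell and 0 rose. They were INSIG1, the sterol sensor that retains SREBP in the endoplasmic reticulum (-0.92 ± 0.16), and 3 enzymes of the pathway. These enzymes were IDI1 (-0.41 ± 0.09), HMGCS1 (-0.39 ± 0.11) and LSS (-0.27 ± 0.07). Of the 4 probe sets of IDI1 2 had the opposite sign without passing, and on the mean of its probe sets IDI1 did not pass (-0.16, limma adjusted p = 0.215). Of 7 targets of the liver X receptor 2 rose, MYLIP, a ligase that degrades the LDL receptor (0.49 ± 0.11), and the receptor gene NR1H3 (0.40 ± 0.11).

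Of 18 glycolysis and glucose transport genes 3 fell and 0 rose, against 3.43% and 3.03% of all genes. The list's median was -0.11, and -0.09 in control siRNA cells. The change differed from that in control siRNA cells for 0 of the 18 genes. SLC2A1, the basal glucose transporter, read 8.35, 7.90 and 7.64 at 4 h and 7.38, 7.01 and 6.99 at 24 h, without overlap (-0.83 ± 0.17). GPI and HK2, enzymes of the first steps, fell by 0.34 ± 0.09 and 0.27 ± 0.07, and another HK2 probe set had the opposite sign without passing. Of the lipid and glucose genes called, INSIG1, SCD and FADS2 kept their calls whichever array was left out. Without replicate 1 at 4 h the other 9 lost them (limma adjusted p = 0.0511 to 0.271), leaving 1 cholesterol, 2 fatty acid and 0 glycolysis genes. HMGCS1, IDI1, LSS, MYLIP, NR1H3 and GPI lost them without replicate 3 at 24 h (0.0546 to 0.145), and without replicate 2 at 24 h HMGCS1, NR1H3, HK2 and GPI (0.0615 to 0.179), leaving 1 glycolysis gene. Without replicate 1 at 24 h HMGCS1, NR1H3 and HK2 lost them (0.0551 to 0.109), without replicate 2 at 4 h LSS, NR1H3 and HK2 (0.0572 to 0.117), and without replicate 3 at 4 h GPI (0.051).

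FOXO factors, held back by AKT, switch on genes of insulin sensitivity, starvation and arrest. Of 19 tested FOXO-induced genes 5 rose and 1 fell, with a median of 0.18. The list's median in control siRNA cells was 0.07, where 1 rose and 0 fell. The change differed from that in control siRNA cells for 0 of the 19 genes. CITED2, a transcriptional coregulator, read 9.73, 9.55 and 9.87 at 4 h and 10.75, 10.48 and 10.87 at 24 h, without overlap (0.99 ± 0.14, limma adjusted p = 0.000294), although another of its probe sets had the opposite sign without passing. INSR, the insulin receptor, read 8.82, 9.34 and 9.46 and then 9.55, 9.84 and 10.10 (0.62 ± 0.14). DEPP1 rose by 1.08 ± 0.29, PDK4, which shuts pyruvate out of the citric acid cycle, by 0.80 ± 0.20, and PIK3IP1, an inhibitor of PI3K, by 0.39 ± 0.10. GADD45A, which p53 also induces, fell by 0.92 ± 0.19. PIK3IP1, PDK4, GADD45A, INSR and DEPP1 lost their calls without replicate 1 at 4 h (0.0668 to 0.216), leaving 1 riser. The same genes but GADD45A lost them without replicate 3 at 24 h (0.0654 to 0.111), also leaving 1, without replicate 2 at 24 h PIK3IP1, PDK4 and DEPP1 (0.0531 to 0.0866), leaving 2, and without replicate 2 at 4 h PIK3IP1 and PDK4 (0.0595 and 0.0505), leaving 3.

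Of 13 tested HER receptors and ligands ERBB2 was the 1 that passed, and with the replicate block 1 also fell. EGFR read 0.17 higher (limma adjusted p = 0.639) and ERBB3, the main partner of HER2, 0.09 higher (0.592). Of 15 insulin and PI3K genes INSR and PIK3IP1 rose and DDIT4 fell, and with the block 2 fell. Of 15 MAPK output genes 1 rose, the phosphatase DUSP4 (0.36 ± 0.10), which switches off MAP kinases. Of 18 immediate early genes, which respond within minutes to growth factors, JUN rose by 0.35 ± 0.10 while NR4A2, an orphan nuclear receptor, fell by 0.43 ± 0.09 and MAFF, a small partner of NRF2, fell by 0.88 ± 0.24. With the block 4 of them fell. The difference for MYC was -0.52 (0.217). On the mean of its probe sets NR4A2 did not pass (-0.23, limma adjusted p = 0.0894), and another of its probe sets had the opposite sign. Leaving out replicate 1 at 4 h ended the calls of DUSP4, JUN, NR4A2 and MAFF (0.0529 to 0.212), and leaving out replicate 2 or 3 at 24 h those of DUSP4, JUN and MAFF (0.0749 to 0.203). Leaving out replicate 2 at 4 h ended DUSP4 and MAFF (0.0557 and 0.0781), and replicate 3 at 4 h JUN (0.067).

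Few cell identity genes passed, beside 3.03% of all genes that rose and 3.43% that fell. In lists of this size 1 call already exceeds these shares. TWIST1, a transcription factor of mesenchymal cells, read 10.40, 10.55 and 10.74 at 4 h and 11.44, 11.32 and 11.46 at 24 h, a rise of 0.84 ± 0.10 (limma adjusted p = 7.01e-05) without overlap, and it was the 1 riser of 6 tested basal and mesenchymal genes. GATA3, which defines luminal cells, rose by 0.31 ± 0.09 and was the 1 riser of 14 luminal genes. With the replicate block 1 of the basal and mesenchymal and 2 of the luminal genes also fell. Both also rose in control siRNA cells, by 0.62 (0.0113) and 0.41 (0.0325). Of 28 estrogen-induced genes 2 rose, FKBP4, a cochaperone of steroid receptors (0.31 ± 0.08), and ADCY9, an adenylyl cyclase (0.55 ± 0.13), while TFF1, PGR and GREB1, classical targets of the estrogen receptor, read -0.13, 0.26 and 0.17 (0.702, 0.608 and 0.778). With the block 4 of the list rose and 2 fell, and in the blocked fit of the 6 arrays alone 1 rose and 2 fell. On the mean of their probe sets FKBP4 (0.06, limma adjusted p = 0.698) and ADCY9 (0.09, 0.592) did not pass, which left 0 risers. GATA3, FKBP4 and ADCY9 lost their calls without replicate 1 at 4 h (0.23, 0.143 and 0.126) or 3 at 24 h (0.187, 0.0714 and 0.0844). GATA3 and FKBP4 also lost them without replicate 2 at 24 h (0.0873 and 0.11), GATA3 without replicate 2 at 4 h (0.0663) and FKBP4 without replicate 3 at 4 h (0.0731).

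To ask which of these changes differ from those of control siRNA cells, the change over time was set against theirs, on arrays the HER2 siRNA change does not share. There 112 genes changed between 4 h and 24 h (0.781%), 52 upwards (0.363%) and 60 downwards (0.419%). Of the 434 genes that rose here 10 rose there (2.3% of 434, 19.2% of 52), and of the 492 that fell 22 fell there (4.47% of 492, 36.7% of 60). The risers had a median difference of 0.46 here and 0.11 there, and the fallers -0.41 here and -0.10 there. The same sign was seen there for 72.6% of the risers and 72.6% of the fallers. The difference of the changes itself passed limma's test for 93 genes (0.649%), 53 with a higher change (0.37%) and 40 with a lower one (0.279%) in HER2 siRNA cells. That count ranged from 39 without the first HER2 siRNA vehicle array at 4 h to 166 without the second, and fell to between 45 and 61 without replicate 2 of HER2 siRNA at 24 h or any 1 of the 6 control siRNA vehicle arrays.

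GRB14 had the largest such difference among genes that passed. It changed by 2.28 in HER2 siRNA cells and 0.15 in control siRNA cells, a difference of 2.13 ± 0.42 (limma adjusted p = 0.0196). That call ended without replicate 1 of HER2 siRNA at 4 h (0.0694), replicate 2 of control siRNA at 24 h (0.0572) or replicate 3 of control siRNA at 4 h (0.0505). ALPP changed by 1.26 and -0.42 (1.68 ± 0.21, 0.000313), CCR2 by 1.27 and -0.02 (1.29 ± 0.23, 0.0096), and TMEM139 by 1.18 and -0.27 (1.45 ± 0.22, 0.00335). NPAS2, a partner of BMAL1 in the circadian clock, read 6.04, 6.25 and 5.99 at 4 h and 6.77, 7.10 and 7.29 at 24 h, a change of 0.96 against -0.51 in control siRNA cells (1.47 ± 0.23, 0.00341). DNAJC6, a cochaperone that uncoats clathrin vesicles, changed by 0.55 against -0.61 (1.16 ± 0.21). Of the YAP targets AJUBA, AMOTL2 and CCN1 passed, with differences of 0.96 ± 0.18, 0.76 ± 0.17 and 0.62 ± 0.11. The AMOTL2 call ended when any 1 of 8 of the 12 arrays was left out (0.0602 to 0.12), whereas those of AJUBA and CCN1 held whichever was left out. On the mean of probe sets the differences of AJUBA (limma adjusted p = 0.0881), CCN1 (0.0596) and DNAJC6 (0.0881) did not pass. In a fit of only the groups compared those of AMOTL2 (0.119), AJUBA (0.0503) and CCN1 (0.113) did not pass. JUN moved in opposite directions, 0.35 in HER2 siRNA cells and -0.41 in control siRNA cells, and both changes passed their own tests (0.0349 and 0.0434).

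On the lower side the 6 largest differences were those of DRAIC, a long noncoding RNA (-1.17 ± 0.19), ANKRD22 (-1.07 ± 0.20), the small nucleolar RNA SNORA21 (-1.07 ± 0.22), CENPE (-0.92 ± 0.20), SCD (-0.89 ± 0.11, limma adjusted p = 0.000313) and the membrane protein PROM2 (-0.87 ± 0.14). SCD is the clearest, since its change was -0.91 in HER2 siRNA cells and -0.02 in control siRNA cells. DRAIC read 6.83, 6.43 and 6.97 at 4 h and 6.03, 5.66 and 5.96 at 24 h, without overlap, and 0.32 higher at 24 h in control siRNA cells. SNORA21 did not pass for the change in HER2 siRNA cells alone (-0.50, 0.0553). Of the mitosis list CENPE was the 1 member whose change differed from control. The calls of CENPE and SNORA21 were less firm, ending when any 1 of 8 (0.0557 to 0.111) and of 7 (0.0511 to 0.08) of the 12 arrays was left out, while those of DRAIC, ANKRD22, SCD and PROM2 held whichever array was left out. On the mean of probe sets the differences of ANKRD22 (0.124) and PROM2 (0.192) did not pass.

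**Figure D4:**
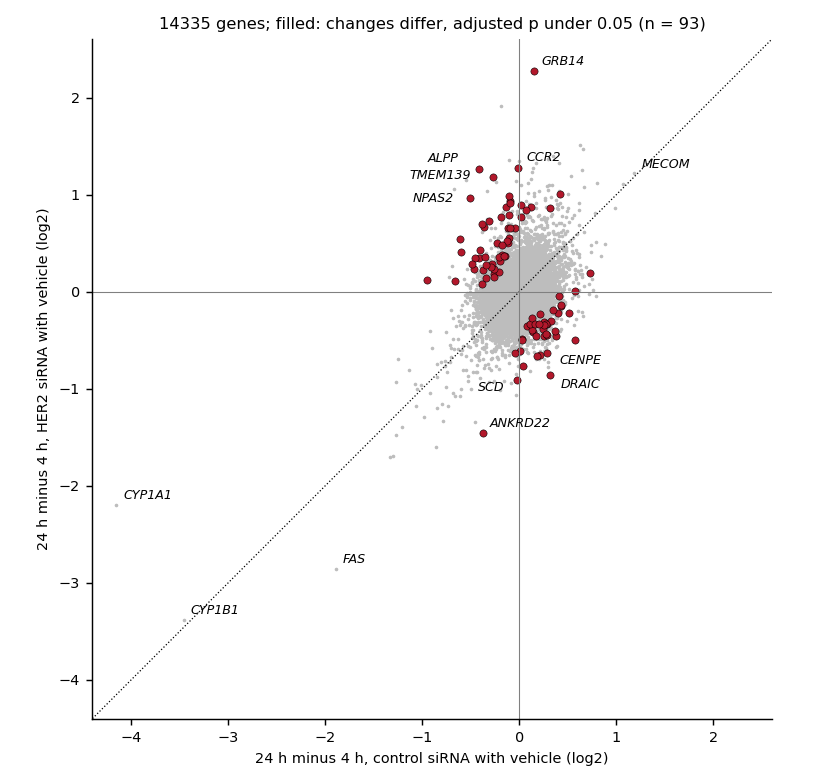
Log2 difference, 24 h minus 4 h, of each tested gene in control siRNA vehicle cells (horizontal) and HER2 siRNA vehicle cells (vertical), with the 93 genes whose change differed between the siRNAs by limma filled and the named ones labelled. CYP1A1 and CYP1B1 fell in both, while GRB14 rose by 2.28 in HER2 siRNA cells against 0.15 in control siRNA cells.

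With 10 nM estrogen in place of vehicle, 890 genes changed between 4 h and 24 h in HER2 siRNA cells (6.21%), 438 upwards (3.06%) and 452 downwards (3.15%). Of the 434 genes that rose in vehicle 152 rose with estrogen (35% of 434, 34.7% of 438), and of the 492 that fell 162 fell (32.9% of 492, 35.8% of 452). The risers had a median difference of 0.27 there and the fallers -0.25, and the 2 changes share no array. The difference of the changes passed for 74 genes (0.516%), 57 with a higher change (0.398%) and 17 with a lower one (0.119%) under estrogen. The count was 38 without replicate 3 of the estrogen group at 24 h. Differences of the estrogen-induced list were led by genes that did not pass in vehicle. TFF1 changed by -0.13 in vehicle and 1.63 with estrogen (1.76 ± 0.22, limma adjusted p = 0.000288), and its levels in vehicle overlapped between times. TCN1, which encodes the vitamin B12 carrier haptocorrin, changed by -0.05 and 3.62 (3.66 ± 0.37), the kallikreins KLK11 and KLK10 by 0.08 and 2.54 and by 0.22 and 2.21, the secreted hormone STC2 by -0.36 and 1.51 and the transcription factor MYBL1 by -0.01 and 1.85. The difference for MYBL1 did not pass when any 1 of 9 of the 12 arrays was left out (0.0519 to 0.135), and those of the other 5 held whichever array was left out.

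The 6 genes whose change was lowest under estrogen relative to vehicle included several that rose in vehicle. CELF2, an RNA-binding protein of splicing, read 6.07, 6.17 and 6.49 at 4 h and 6.91, 7.24 and 7.39 at 24 h, a rise of 0.94 ± 0.12 in vehicle against -0.23 with estrogen (limma adjusted p of the difference = 0.00172) and -0.10 in control siRNA cells in vehicle (0.00743). MME, the surface peptidase neprilysin, rose by 0.76 in vehicle and read -0.12 with estrogen, REG4, a secreted lectin, 0.71 and -0.47, and SCGN, a calcium-binding protein, 0.46 and -0.35. GRIK2, a glutamate receptor subunit, read 0.54 and -1.09 and UBE2QL1, a ubiquitin-conjugating enzyme relative, -0.01 and -1.22, and neither passed in vehicle. Replication genes had a median change of -0.06 in vehicle and 0.31 with estrogen, where 15 of 40 rose. Mitosis genes had -0.43 and 0.00. The difference of the changes itself passed for 1 of the 40 replication genes and 0 of the 35 mitosis genes. HSPD1, the mitochondrial chaperonin, fell by 0.31 in vehicle and read 0.16 with estrogen (0.0331 for the difference), and IMPDH2 rose by 0.32 and 0.88 (0.0319). The differences for HSPD1, IMPDH2, SCGN and REG4 were less firm, ending when any 1 of 7 (0.0557 to 0.123), 9 (0.0507 to 0.122), 7 (0.05 to 0.0881) and 4 (0.0511 to 0.0701) of the 12 arrays was left out. The vehicle rise of SCGN itself was lost without 4 of the 6 arrays (0.0603 to 0.161), and that of REG4 without replicate 3 at 24 h (0.0704) or replicate 1 at 4 h (0.0523).

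**Figure D5:**
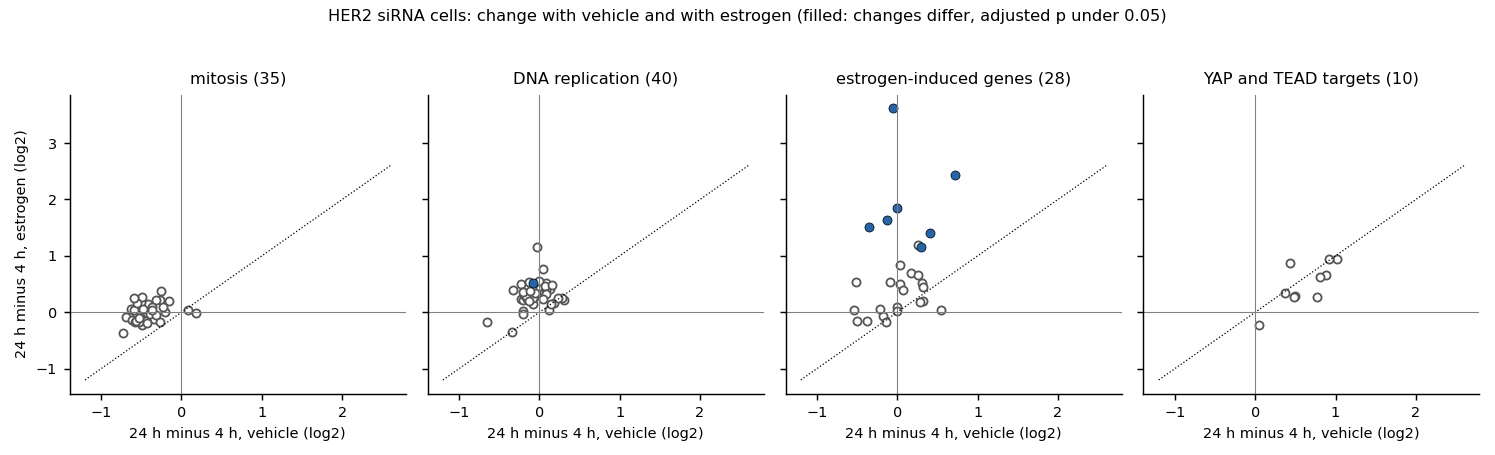
Log2 difference, 24 h minus 4 h, in HER2 siRNA cells with vehicle (horizontal) and with 10 nM estrogen (vertical) for members of the mitosis, DNA replication, estrogen-induced and YAP lists, 1 point a gene. YAP targets lie above 0 on average in both, with medians of 0.64 and 0.49, and replication genes have medians of -0.06 and 0.31.

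Last, the changes over time were set beside the effect of the siRNA itself on arrays that the comparison does not use, HER2 siRNA against control siRNA with estrogen at 4 h. That effect took in 34.1% of genes, with 2408 genes higher (16.8%) and 2478 lower (17.3%) in HER2 siRNA cells. Of the 434 genes that rose from 4 h to 24 h 247 were among the higher (56.9% of 434, 10.3% of 2408) and 19 among the lower. Of the 492 that fell 277 were among the lower (56.3% of 492, 11.2% of 2478) and 21 among the higher. 1 array of that contrast, replicate 3 of the HER2 siRNA estrogen group at 4 h, carries a source label that says 24 h while its other labels say 4 h, and it was kept at 4 h.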

How the data were processed

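The deposited log2 expression values were made by the authors with RMA, per the submitters' processing notes; its version is not given in the sources used here. Total RNA was labelled by a 3′ in vitro transcription kit, per the labels' protocols. Of 54675 probe sets, 41091 carried 1 gene symbol in the platform annotation, 1801 several and 11721 none, and 62 were controls. Each of 19775 genes was represented by its probe set with the highest mean over the 24 arrays, and 14335 with a log2 level of 5 or more in at least 3 arrays were tested. Groups were taken from the sample titles. limma 3.58.1 in R 4.3.3 fitted 1 mean per group to all 24 arrays, with eBayes and Benjamini-Hochberg adjustment. The procedure was tested on simulated data with known changes. Arrays limit precision by their number, 3 a group. Replicate number was taken to pair the 6 arrays, which the labels do not state. Deviations from the group means correlated at 0.4, 0.205 and 0.474 between arrays of the same number. Between arrays of different numbers they correlated at -0.52 to 0.189. Values with the number as a block are given where they change a named gene's call or move a list's count by over 1.5 times. The other groups were not shown to be paired, although the block was fitted to all 24 arrays except where the 6 arrays alone are named.

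Named genes are up to 15 each way with the largest differences among called genes whose groups do not overlap, ERBB2, up to 6 each way for each difference of changes, and up to 6 called members of each of 36 gene lists with the smallest adjusted p; other list members are named where a sentence turns on them. The members and lists were chosen with earlier results of these data known. Promoters came from RefSeq (GRCh38.p14) and were matched by gene symbol. The alternatives were other filters, probe set rules, scalings, moderation, array weights, the arrays in the fit, the block, and leaving out single arrays or the 3 arrays whose label numbers stand apart.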

Additional observations from a re-analysis of the deposited data

Results flagged for a closer look

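The tested difference between the 24 h against 4 h change of HER2 siRNA cells and that of control siRNA cells, both in vehicle, singled out 21 of the named genes. The change was higher in HER2 siRNA cells for GRB14 by 2.13, ALPP by 1.68, NPAS2 by 1.47, TMEM139 by 1.45, CCR2 by 1.29, DNAJC6 by 1.16, CELF2 by 1.04 and AJUBA by 0.96 on the log2 scale. It was also higher for TNFAIP2 by 0.77, AMOTL2 by 0.76, JUN by 0.76, CCN1 by 0.62 and FBL, a methyltransferase of ribosomal RNA, by 0.41. The difference was below 0 for DRAIC (-1.17), ANKRD22 (-1.07), SNORA21 (-1.07), CENPE (-0.92), SCD (-0.89), PROM2 (-0.87), NR4A2 (-0.71) and LSS (-0.40). The calls of FBL and LSS each ended when any 1 of 11 of the 12 arrays was left out (adjusted p = 0.0511 to 0.101 and 0.0594 to 0.115), and those of AMOTL2, CENPE, SNORA21 and GRB14 with any 1 of 8, 8, 7 and 3 left out. The rest held whichever array was left out. On the mean of probe sets the calls of AJUBA, CCN1, DNAJC6, ANKRD22, PROM2 and LSS ended (limma adjusted p = 0.0596 to 0.313).

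The tested difference between the change with estrogen and the change with vehicle, both in HER2 siRNA cells, singled out 14. It was above 0 for TCN1 (3.66), KLK11 (2.46), KLK10 (1.99), STC2 (1.86), MYBL1 (1.85), TFF1 (1.76), IMPDH2 (0.55) and HSPD1 (0.47). It was below 0 for GRIK2 (-1.63), UBE2QL1 (-1.21), REG4 (-1.19), CELF2 (-1.16), MME (-0.88) and SCGN (-0.81). CELF2 is in both sets. The calls of MYBL1, IMPDH2, HSPD1, SCGN and REG4 ended when any 1 of 9, 9, 7, 7 and 4 of the 12 arrays was left out, and the rest held whichever was left out.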

How the results depend on the processing

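The 24 h against 4 h count of 926 was 1670 with the replicate block, 52 in a fit of only the groups compared, 542 with both (added after seeing the data), and 208 to 1089 when 1 array was left out (208 without replicate 1 at 4 h, 406 and 407 without replicates 2 and 3 at 24 h). The difference from control siRNA, called for 93 genes, was called for 158 with the stricter filter, 282 with the replicate block, 14 with only the groups compared, 176 with array weights and 39 to 166 without single arrays. The difference from estrogen, called for 74 genes, was called for 124 with the stricter filter, 198 with the replicate block, 20 with only the groups compared and 38 to 111 without single arrays. The other settings kept each total within 1.5 times, and no called difference of a named gene changed sign. The split between higher and lower moved more: for the difference from control, 53 and 40 became 69 and 70 with the intensity trend, 75 and 83 with the stricter filter and 77 and 89 without HER2 siRNA replicate 2 at 4 h. Of 123 called genes named or on a list, 20 kept their call in every setting in which they were tested (16 to 18 settings), and 100 lost it when only the 6 arrays were fitted, which leaves fewer arrays to estimate the spread. In that fit 1 YAP target rose, 0 mitosis genes and 1 p53 target fell, and 73.1% of the called genes were higher, against 46.9% in the fit of all 24 arrays and 54.3% without replicate 1 at 24 h. With each gene's probe sets averaged, the calls of ADCY9, ASNS, AURKB, CDK6, DEPP1, DLX1, FKBP4, HERC6, HK2, HSPD1, IDI1, MT1E, NR4A2, PROM2, RFC5, SLC2A1 and TRIB3 ended (adjusted p = 0.0515 to 0.698).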

Other observations

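Of 8 tested metallothionein and zinc genes 3 fell and 0 rose: MT1X by 0.46 ± 0.11, MT2A by 0.44 ± 0.11 and MT1E by 0.28 ± 0.08, all zinc-binding proteins. Of 10 heat shock proteins 2 fell, the cytosolic HSPA4 by 0.42 ± 0.08 and the mitochondrial HSPD1 by 0.31 ± 0.07, and other probe sets of both had the opposite sign without passing. Of 18 oxidative phosphorylation genes 2 complex I subunits fell, NDUFS1 by 0.45 ± 0.11 and NDUFA9 by 0.28 ± 0.07. Of 19 lysosome and autophagy genes 1 fell, WIPI1, which acts in autophagosome formation, and 3 with the replicate block. WIPI1 read 8.96, 8.82 and 8.49 at 4 h and 8.05, 7.93 and 7.88 at 24 h (-0.81 ± 0.13, limma adjusted p = 0.000661). Of 16 ribosome biogenesis genes 0 passed by limma (1 higher at an unadjusted p under 0.05, and 0 with the replicate block), and of 4 MondoA targets 0 passed (1 lower, and 1 with the block).

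Of 13 inflammatory genes TNFAIP2, a target of NF-kB, rose by 0.85 ± 0.10, while LCN2, an iron-scavenging lipocalin, fell by 0.93 ± 0.22, besides CXCL8. TNFAIP2 read 5.93, 6.20 and 6.21 at 4 h and 6.98, 6.85 and 7.06 at 24 h, without overlap (limma adjusted p = 5.31e-05). Of 16 interferon response genes HERC6 and IRF9 rose by 0.52 ± 0.14 and 0.38 ± 0.11 and CMPK2 fell by 0.56 ± 0.12. Of 15 circadian clock genes NPAS2 and HLF rose, the latter by 0.83 ± 0.15, of 12 TGF-beta targets LTBP1 (0.48 ± 0.11) and of 18 hypoxia-inducible genes EGLN3 (0.42 ± 0.09). With the block 2 TGF-beta targets also fell and 4 hypoxia-inducible genes rose, where 868 of all 14335 genes fell and 802 rose. In the blocked fit of the 6 arrays alone 0 TGF-beta targets fell and 2 hypoxia-inducible genes rose. Of 14 apoptosis regulators PMAIP1 fell, and with the block 2 fell and 1 rose. WIPI1, TNFAIP2, NPAS2, HLF, PMAIP1 and HSPA4 kept their calls whichever array was left out. The calls of the other genes of both paragraphs ended without at least 1 array. That of IRF9 ended whichever of the 6 arrays was left out (limma adjusted p = 0.0508 to 0.16), and that of HERC6 without 4 of them (0.0579 to 0.203). Without replicate 1 at 4 h MT1X, MT2A, MT1E, HSPD1, NDUFS1, NDUFA9, HERC6, IRF9, CMPK2, LTBP1 and EGLN3 did not pass (0.0826 to 0.203). Without replicate 3 at 24 h the same genes except CMPK2, and LCN2, did not pass (0.0541 to 0.16).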
